A study of Mus musculus with 2 samples.

Results

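Abcd4 and Gna12 were followed through the nuclei of P21 mouse retina, each beside a close paralogue, Abcd3 for Abcd4 and Gna13 for Gna12. These are 4 of the 32227 genes in the deposited table, and each symbol matched 1 row. Abcd4 and Gna12 were chosen by their measured levels, which were higher in Tet tcKO than in Cre- nuclei in several cell classes, so their ratios between the genotypes are given as a description and no test was made on them. Abcd3 and Gna13 were taken for their relation to the first pair.

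ABCD4 is a membrane protein of the lysosome that works with LMBD1, the product of Lmbrd1, to pass cobalamin from the lysosome into the cytosol, where it becomes a cofactor for methionine synthase and methylmalonyl-CoA mutase. ABCD3 belongs to the same transporter family but sits in the peroxisome membrane and carries fatty acyl-CoA into that organelle. The Gna12 and Gna13 proteins are the alpha subunits of a heterotrimeric G protein class that links receptors for lysophosphatidic acid, sphingosine 1-phosphate and thrombin to guanine nucleotide exchange factors for RhoA, and so to the ROCK kinases and the actin cytoskeleton.

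The series holds 2 libraries of single-nucleus RNA-seq (PIPseq, a 3' method that captures nuclei in particle-templated droplets) from whole retina of C57 BL/6J mice. The control, Cre-, came from age-matched animals of breeders without Cre, labelled WT. Tet tcKO animals were homozygous for loxP alleles of Tet1, Tet2 and Tet3, the enzymes that oxidise 5-methylcytosine, and carried a Cre-GFP transgene, which is active in retinal progenitor cells. The study bred Cre-positive animals to each other so that every Tet tcKO animal had more than 1 transgene copy, as a guard against mosaic expression. Each library came from 2 dissociation pools of at least 4 retinas, and no label ties a nucleus to its pool, so there was 1 library per genotype. Tet loss, carriage of the transgene and library preparation cannot be told apart in this design, and intervals below are 95% intervals that cover counting error only.

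The Cre- library held 7357 nuclei and 11510585 UMIs (median 1107 per nucleus), and the Tet tcKO library 6766 nuclei and 16590747 UMIs (median 1836.5). The median mitochondrial percent was 9.52 in Cre- and 5.38 in Tet tcKO nuclei, and its part in the levels below was not tested. The libraries shared 1 barcode. Rods were 5214 Cre- but only 6 Tet tcKO nuclei, and cones 265 and 3225. Levels are UMIs of a gene per 1000000 UMIs of a population (CPM). The authors' class names were checked against class markers in the 10 leading genes of each cluster. Amacrine cells, retinal ganglion cells (RGCs) and horizontal cells passed. A cluster also passed when those genes held 0 markers of any class. That was so for amacrine clusters 12 (357 Tet tcKO nuclei), 13 and 27 (256 Cre- nuclei), whose amacrine name was therefore not tested. Amacrine clusters 23 and 24 and every RGC and horizontal cluster held 1 marker of their own class. Some clusters of bipolar cells (4 of 9), cones (1 of 9), Müller glia (2 of 3) and rods (3 of 15) did not pass. Each had 1 marker of another class among those 10 genes and 0 of its own, which is called led by that marker below. For those classes levels are set side by side and no ratio between the libraries is drawn. The 1 such cone cluster, led by a rod marker, held 264 of the 265 Cre- cones. The 4 such bipolar clusters held 214, 409, 409 and 188 of the 1649 Tet tcKO bipolar nuclei. Their cone marker was Cngb3, which was not the first of the 10 genes and was itself higher in Tet tcKO in every population compared. Rods and cones were also pooled as photoreceptors, a pool that is mostly rods in Cre- and nearly all cones in Tet tcKO. The targeted genes gave 50.2 and 61.2 CPM for Tet1, 105 and 139 for Tet2, and 180 and 174 for Tet3 in Cre- and Tet tcKO, and counts over a whole gene do not show whether the floxed exons were lost.

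Since TET enzymes act on methylated CpG sites, sequence before Abcd4 and Gna12 is shown, 5' to 3' on the strand of the gene, with each CpG in capitals. The windows are the 250 bases before the start of the canonical transcript in GENCODE M39, read from GRCm39. The last 129 bases of the Gna12 window lie inside the annotated span of that gene, which starts further upstream than the canonical transcript, and only the first 121 bases, with 5 CpG, are printed.

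Abcd4, chr12:84664275-84664524, minus strand: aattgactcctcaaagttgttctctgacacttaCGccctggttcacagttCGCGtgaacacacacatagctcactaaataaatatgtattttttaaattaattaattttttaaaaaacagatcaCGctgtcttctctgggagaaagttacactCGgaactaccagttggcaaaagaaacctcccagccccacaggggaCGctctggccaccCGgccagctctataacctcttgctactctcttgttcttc

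Gna12, chr5:140816337-140816457, minus strand: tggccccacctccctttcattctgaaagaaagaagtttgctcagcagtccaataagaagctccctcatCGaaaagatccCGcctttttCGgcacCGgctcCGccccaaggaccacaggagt

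The whole Abcd4 window held 7 CpG and the whole Gna12 window 17, against a median of 8 over 21757 promoters of protein-coding genes. As many or more CpG were found in 54.4% of all promoters for Abcd4 and in 22.7% for Gna12. The paralogues held 13 (Abcd3) and 36 (Gna13), and only 1.42% of promoters matched the Gna13 count. Abcd4 and Gna12 thus did not have the CpG-richest windows of the 4 genes. Motifs were searched on both strands of the whole 250-base windows. Some of the Gna12 matches below therefore lie in the 129 bases inside the gene span, which are not printed. CCAAT, the core of the NF-Y site, occurred 2 times in the Gna12 window and in none of the other 3, against 36.5% of all promoters with a match. GGGCGG, a GC box read by SP factors, occurred 4 times in the Gna12 window and 2 times in that of Gna13, and 36.3% of promoters held it. TAATCC, a sequence that the photoreceptor factor CRX can bind, was found only before Abcd3 among the 4, and in 7.0% of promoters. The Abcd4 and Gna12 windows shared none of these motifs. Methylation and factor binding at these windows were not analysed here, so the letters are a description of sequence.

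Abcd4 (ENSMUSG00000021240) lies on chromosome 12 at 84648238-84664274, minus strand, a gene of 16 kb. Over all nuclei it gave 423 UMIs in Cre- and 2873 in Tet tcKO, which were 36.7 CPM (33.3 to 40.4) and 173 CPM (167 to 180). The Tet tcKO level was 4.71-fold the Cre- level (4.25 to 5.23), a log2 ratio of 2.24. Of the 11158 genes that reached 10 CPM in either library, the median had a log2 ratio of 0.15, and Abcd4 ranked 48 from the top.

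Gna12 (ENSMUSG00000000149), on chromosome 5 at 140744158-140816336, minus strand, spans 72.2 kb. It gave 305 UMIs in Cre- and 2103 in Tet tcKO, levels of 26.5 CPM (23.6 to 29.6) and 127 CPM (121 to 132). Its fold was 4.78 (4.24 to 5.41) and its log2 ratio 2.26, at rank 46. The ratios of Abcd4 and Gna12 over all nuclei thus lay within each other's counting interval.

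The paralogues differed far less between the libraries. Abcd3 (ENSMUSG00000028127, chromosome 3 at 121552423-121609141, minus strand) went from 394 UMIs and 34.2 CPM (30.9 to 37.8) to 749 UMIs and 45.1 CPM (42.0 to 48.5), a fold of 1.32 (1.17 to 1.49). Gna13 (ENSMUSG00000020611, chromosome 11 at 109253598-109292195, plus strand) went from 321 UMIs and 27.9 CPM (24.9 to 31.1) to 614 UMIs and 37.0 CPM (34.1 to 40.1), a fold of 1.33 (1.16 to 1.52). Their log2 ratios, 0.40 and 0.41, placed them at ranks 2813 and 2733. Of the 4 genes, Abcd4 and Gna12 were at least 2-fold higher in Tet tcKO, a call that 3.18% of all genes met. Since the choice of this pair used that contrast, nothing is read from the count.

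The level of Abcd4 in Cre- nuclei was low in every class. Rods gave 32.5 CPM (213 UMIs, 28.3 to 37.2) and cones 19.4 CPM (20 UMIs, 11.8 to 29.9). Bipolar cells gave 47.0 CPM (83 UMIs, 37.4 to 58.3), RGCs 48.0 CPM (59 UMIs, 36.5 to 61.9) and amacrine cells 51.9 CPM (29 UMIs, 34.8 to 74.6). Müller glia stood at 54.0 CPM on 12 UMIs (27.9 to 94.3) and horizontal cells at 44.2 CPM on 7 UMIs (17.8 to 91.1). Ranked from cones over rods, horizontal cells, bipolar cells, RGCs and amacrine cells to Müller glia, each interval overlapped the next. Further apart in that order, cones lay below bipolar cells, RGCs and amacrine cells, and rods just below bipolar cells. Against the pooled photoreceptors of Cre-, the Abcd4 level was 1.69 times as high in amacrine cells (1.11 to 2.49) and 1.56 times in RGCs (1.15 to 2.08), and 1.44 times in horizontal cells with an interval that spans 1 (0.572 to 3.01).

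In Tet tcKO the amacrine, RGC and horizontal levels lay above those in Cre-, with intervals apart. Among the Tet tcKO classes cones were lowest, at 128 CPM (945 UMIs, 120 to 136). RGCs gave 167 CPM (357 UMIs, 150 to 186), amacrine cells 183 CPM (429 UMIs, 166 to 201) and horizontal cells 198 CPM (22 UMIs, 124 to 300.0), and these neighbours overlapped. Bipolar cells gave 238 CPM (1057 UMIs, 224 to 253), with an interval above those of RGCs and amacrine cells. Müller glia were highest, at 409 CPM (61 UMIs, 313 to 525). The 6 Tet tcKO rods held 2 UMIs of Abcd4 and of Gna12, too few for a level. Nuclei annotated as cones lay below amacrine cells and RGCs, with intervals apart, in both libraries. Those of Cre- were nearly all in the cluster led by a rod marker. The rod genes Nrl and Gnat1 were at 550 and 1427 CPM in them, beside 435 and 1205 CPM in Cre- rods. The cone genes Opn1sw and Arr3 were also higher in these cones, at 112 and 880 CPM beside 72.4 and 735 CPM in Cre- rods. Gnat2 (88.2 and 84.2 CPM) and Cngb3 (237 and 236 CPM) were alike in the Cre- cones and rods.

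**Figure D1:**
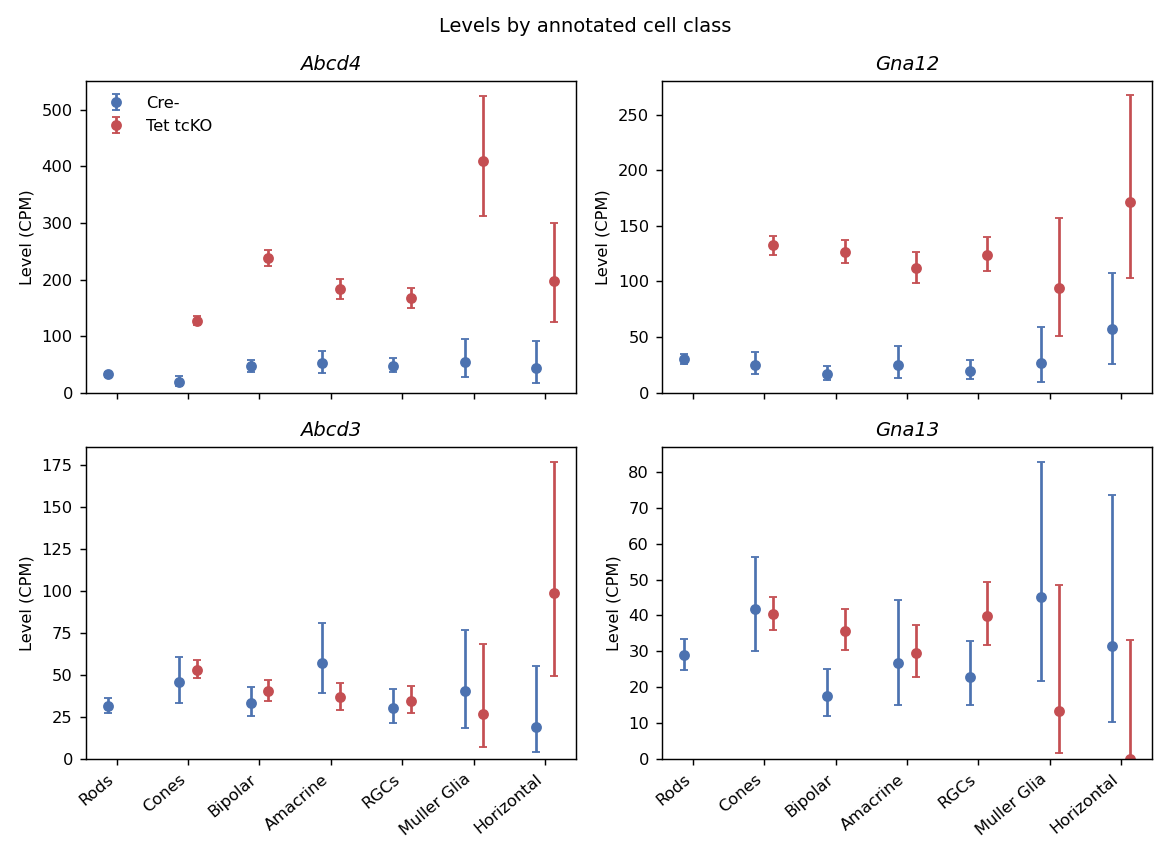
Levels in CPM of Abcd4, Gna12, Abcd3 and Gna13 by annotated class, Cre- in blue and Tet tcKO in red, with 95% Poisson intervals and an axis of its own for each gene. Abcd4 and Gna12 points of Tet tcKO sit above those of Cre- in every class shown in both. Those of Abcd3 and Gna13 sit above in some classes and below in others, with Abcd3 in horizontal cells at 18.9 and 99.1 CPM. Tet tcKO rods (6 nuclei) are not drawn, and no ratio between the libraries is given for rods, cones, bipolar cells or Müller glia.

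Within the populations that could be compared, Abcd4 rested on 29 Cre- and 429 Tet tcKO UMIs in amacrine cells, and its log2 ratio there was 1.82 (1.28 to 2.41). The background share of genes at least 2-fold higher was 6.44% there. In RGCs, where that share was 3.53%, the ratio was 1.80 (1.40 to 2.23). In horizontal cells it was 2.16 with a wide interval (0.89 to 3.63), and 14.9% of genes were called on these few nuclei. In pooled photoreceptors (30.8 CPM in Cre-, 128 in Tet tcKO) it was 2.06 (1.85 to 2.27), against 6.67% of genes. The Abcd4 ratio therefore lay between 1.80 and 2.16 in the 4 populations, and each interval overlapped the other 3.

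Gna12 in Cre- was at 17.0 CPM in bipolar cells (30 UMIs, 11.5 to 24.3), 19.5 in RGCs (24 UMIs, 12.5 to 29.0), 25.1 in amacrine cells (14 UMIs, 13.7 to 42.1) and 25.2 in cones (26 UMIs, 16.5 to 36.9). Müller glia gave 27.0 CPM (6 UMIs, 9.91 to 58.8), rods 29.9 (196 UMIs, 25.9 to 34.4) and horizontal cells 56.8 (9 UMIs, 26.0 to 108). Neighbours in this order overlapped throughout.

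In Tet tcKO the Gna12 intervals of all classes overlapped. Müller glia gave 93.8 CPM (14 UMIs, 51.3 to 157), amacrine cells 112 (262 UMIs, 98.7 to 126), RGCs 124 (264 UMIs, 109 to 140), bipolar cells 126 (562 UMIs, 116 to 137), cones 132 (980 UMIs, 124 to 141) and horizontal cells 171 (19 UMIs, 103 to 267). Müller glia were the class with the highest Abcd4 level and the lowest Gna12 level, although 14 UMIs leave the latter wide. In horizontal cells the Gna12 intervals of the libraries overlapped.

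The Gna12 log2 ratio was 2.18 in pooled photoreceptors (1.97 to 2.39), from 29.3 to 133 CPM. It was 2.16 in amacrine cells (1.39 to 3.05) and 1.59 in horizontal cells (0.38 to 2.92). RGCs had the largest, 2.67 (2.06 to 3.33), a fold of 6.34 that ranked 10 of 10262 genes in that class. The intervals of the 4 populations overlapped. Both genes were at least 2-fold higher over all nuclei and in each of the 4 populations, a pattern met by 15 of 6811 genes, 0.22%. The other 13, named after their values were seen, included the cone genes Gnat2 and Cngb3 along with Prdm1, Atp1b2, C1ql3, Robo3, Prtg and Col4a5. The pair was chosen for a rise in several classes, so nothing is read from the share of 0.22%.

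Abcd3 showed no common direction. Its log2 ratio was 0.67 in pooled photoreceptors (0.43 to 0.90), where the median gene was at 0.23, and 0.21 in RGCs (-0.38 to 0.82). Amacrine cells went the other way, with a Cre- level of 57.3 CPM (32 UMIs), a Tet tcKO level of 36.7 CPM (86 UMIs) and a ratio of -0.64 (-1.24 to -0.01). In horizontal cells 3 UMIs in Cre- and 11 in Tet tcKO gave 2.39 (0.47 to 4.87). Bipolar cells stood at 33.4 and 40.5 CPM, cones at 45.6 and 53.2 CPM, and Müller glia at 40.5 and 26.8 CPM, in Cre- and Tet tcKO.

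Gna13 had log2 ratios of 0.40 in pooled photoreceptors (0.15 to 0.65), 0.13 in amacrine cells (-0.69 to 1.05) and 0.81 in RGCs (0.18 to 1.48). Cones were at 41.7 CPM in Cre- (30.2 to 56.2) and 40.4 CPM in Tet tcKO (35.9 to 45.2). Bipolar cells were at 17.6 CPM (11.9 to 24.9) and 35.8 CPM (30.4 to 41.8). Horizontal cells held 5 UMIs of Gna13 in Cre- and 0 in Tet tcKO, which allows up to 27.0 CPM, and no ratio is given. Outside horizontal cells, neither paralogue reached 2-fold in any population compared. None of the 4 genes was at least 2-fold lower in Tet tcKO over all nuclei, in pooled photoreceptors, in amacrine cells or in RGCs, where 2.48%, 2.58%, 6.44% and 3.2% of genes were, nor in horizontal cells (13.5%) among the 3 with a ratio there.

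**Figure D2:**
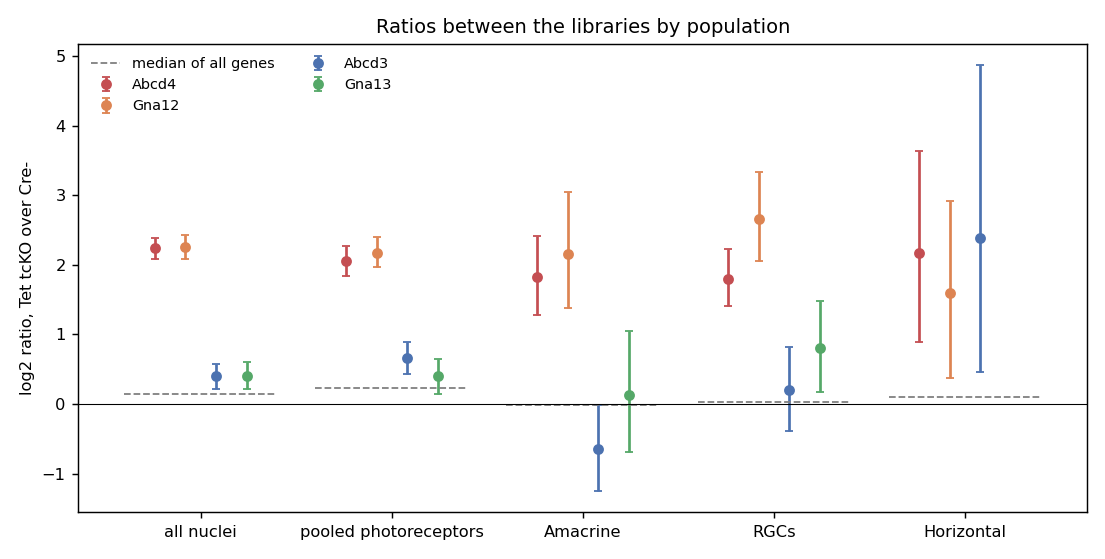
Log2 ratio of Tet tcKO over Cre- for the 4 genes in each population compared, with 95% counting intervals, and dashed lines at the median of all genes measured in that population. Abcd4 and Gna12 lie between 1.59 and 2.67 everywhere, Abcd3 and Gna13 below 1 except Abcd3 in horizontal cells (3 and 11 UMIs), where Gna13 is not drawn.

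Levels were also taken by cluster. Each library had 21 clusters of at least 100 nuclei. Abcd4 in Cre- clusters ran from 0 CPM (a rod cluster of 205 nuclei, where a count of 0 allows up to 14.4 CPM) over a median of 32.4 to 73.6 CPM in a bipolar cluster. In Tet tcKO it ran from 99.98 CPM in a cone cluster over a median of 155 to 509.9 CPM in a bipolar cluster. Gna12 spanned 4.92 to 41.0 CPM in Cre- clusters (median 21.8) and 48.96, in an amacrine cluster, to 198 CPM in those of Tet tcKO (median 110). For both genes every Tet tcKO cluster of at least 100 nuclei was above every such Cre- cluster. That held for 10 of 11158 genes, 0.0896%, and the other 8, named after their values were seen, were Fabp7, Rnf180, Ambra1, Nfkb1, Fam131b, Robo3, Gm33091 and Gm1698. The clusters divide the nuclei on which the pair was chosen, so nothing is read from that share. They are not replicates, as each genotype had 1 library. Between the nearest clusters of the libraries the counting intervals overlapped. For Gna12 these were 26.3 to 61.1 in Cre- and 31.0 to 73.5 CPM in Tet tcKO, and for Abcd4 49.6 to 105 and 72.6 to 134. Among smaller Cre- clusters, Gna12 was at 67.4 CPM (cluster 24, 4 UMIs), 63.9 (cluster 23, 2 UMIs) and 56.8 (cluster 18, 9 UMIs). These lay above the lowest Tet tcKO cluster. Abcd3 spanned 14.7 to 69.9 CPM over the Cre- clusters against 22.0 to 62.6 over those of Tet tcKO, and Gna13 8.40 to 46.1 against 23.4 to 54.2. The paralogues' clusters thus overlapped between the libraries over most of their range.

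**Figure D3:**
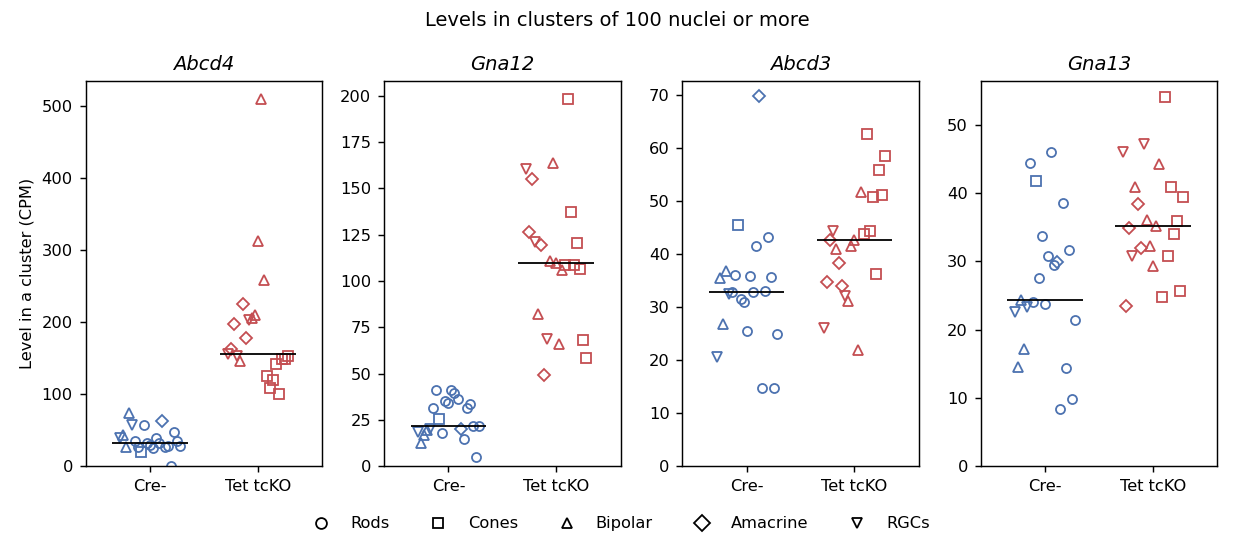
Level in CPM of each gene in every cluster of at least 100 nuclei, 21 clusters per library, with marks by annotated class and a bar at the median. The cluster levels of the libraries do not overlap for Abcd4 (highest Cre- 73.6, lowest Tet tcKO 99.98) or Gna12 (41.0 and 48.96). They do overlap for Abcd3 and Gna13. Counting intervals are not drawn, and those of the nearest Cre- and Tet tcKO clusters overlap for Abcd4 and Gna12.

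Most clusters were nearly all from 1 library, and only 9 held at least 20 nuclei of both. In RGC cluster 2, the best covered with 111 Cre- and 185 Tet tcKO nuclei, Abcd4 gave 19 and 125 UMIs and Gna12 9 and 129. The log2 ratios there were 1.99 for Abcd4 (1.29 to 2.77) and 3.12 for Gna12 (2.15 to 4.28), beside 0.34 for Abcd3 and 1.02 for Gna13 (0.02 to 2.14). RGC cluster 8 (394 and 29 nuclei) gave 2.13 for Abcd4 and 2.26 for Gna12. Amacrine cluster 13 gave 2.20 for Abcd4 from 5 and 51 UMIs, and 4.17 for Gna12 from 1 and 40 UMIs (1.61 to 9.51). Amacrine cluster 24 was the exception for Gna12, with 4 and 23 UMIs and a log2 ratio of -0.46 (-2.01 to 1.53), while its Abcd4 ratio was 2.41 from 2 and 84 UMIs (0.51 to 5.48). Müller cluster 30, which was led by a marker of another class, gave 2.30 for Abcd4 from 3 and 23 UMIs (0.57 to 4.68). Abcd4 was above 0 in all 9 shared clusters and Gna12 in 8. The pair was chosen on these same nuclei, the clusters are not replicates, and the share of all genes with such a pattern was not taken. Nothing is therefore read from these counts. The interval included 0 for Abcd4 in clusters 23 and 27, where its ratios were 1.23 and 0.78, and for Gna12 in clusters 23, 24, 27, 30 and 31.

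The higher levels went with more nuclei that held the transcript. After every nucleus was thinned to 500 UMIs, Abcd4 was found in 1.74% of Cre- nuclei (1.45 to 2.07) and 8.28% of Tet tcKO nuclei (7.63 to 8.96). Gna12 was found in 1.25% (1.01 to 1.53) and 4.83% (4.33 to 5.37). The shares for Abcd3 were 1.51% and 2.23%, and those for Gna13 were 1.51% and 1.74% (1.24 to 1.81 and 1.45 to 2.08). No retinal class is known to lack these genes, so no class could serve as a blank for free RNA. Before thinning the Cre- and Tet tcKO shares were 5.36% and 31.6% for Abcd4 and 3.96% and 24.2% for Gna12. Of the 2139 Tet tcKO nuclei with Abcd4, 76.1% held 1 UMI and the highest held 7, so no small set of nuclei carried the level. Of the 1638 with Gna12, 77.5% held 1 UMI and the highest held 5.

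By class, the thinned share of Tet tcKO nuclei with Abcd4 was 6.26% in cones (5.45 to 7.16), 7.67% in RGCs (5.81 to 9.89), 9.30% in amacrine cells (7.61 to 11.2), 11.3% in bipolar cells (9.85 to 13) and 16.7% in Müller glia (10.0 to 25.3). For Gna12 it was 4.71% in cones, 4.55% in RGCs, 4.89% in amacrine cells, 5.22% in bipolar cells and 1.96% in Müller glia (0.238 to 6.90). Horizontal cells gave 8.11% for Abcd4 (1.70 to 21.9) and 10.8% for Gna12 (3.03 to 25.4), on 3 and 4 nuclei. For Abcd4 the interval of cones lay below those of amacrine cells, bipolar cells and Müller glia, and for Gna12 the intervals of all classes overlapped.

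Nuclei with both transcripts were few. In thinned Tet tcKO cones, Gna12 was found in 3.47% of nuclei with Abcd4 (7 of 202, 1.40 to 7.01) and in 4.80% of those without (145 of 3023, 4.06 to 5.62). In bipolar cells the shares were 5.35% and 5.20%, in amacrine cells 5.15% and 4.86%, and in RGCs 3.70% and 4.62%. Intervals overlapped in all 4 classes, on 2 to 10 nuclei with both transcripts, too few to show whether the pair lies in the same nuclei.

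Cone transcripts were also found outside cones. Over the 9 cone markers, 8 were higher in Tet tcKO amacrine cells and 8 in RGCs, and their summed level went from 793 to 1976 CPM and from 528 to 1264 CPM. In horizontal cells it went from 783 to 2396 CPM, with all 8 markers that had a ratio higher. The 7 rod markers were all lower in Tet tcKO in amacrine cells, RGCs and horizontal cells, for example from 1436 to 449.5 CPM summed over amacrine cells. These values move with the Abcd4 and Gna12 levels between the libraries, and their part in those levels was not tested. Within the Tet tcKO library, levels in amacrine cells and RGCs were set against those in cones. Opn1sw, the short-wavelength cone opsin, was at 0.178 times its cone level in amacrine cells and 0.146 times in RGCs. Abcd4 was at 1.43 times (1.28 to 1.61) and 1.31 times (1.16 to 1.48) its cone level in the same classes. Gna12 was at 0.845 times (0.734 to 0.969) and 0.935 times (0.813 to 1.07). Among other cone genes in amacrine cells, Gnat2 was at 0.158, Arr3 at 0.180 and Cngb3 at 0.373 times the cone level.

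**Figure D4:**
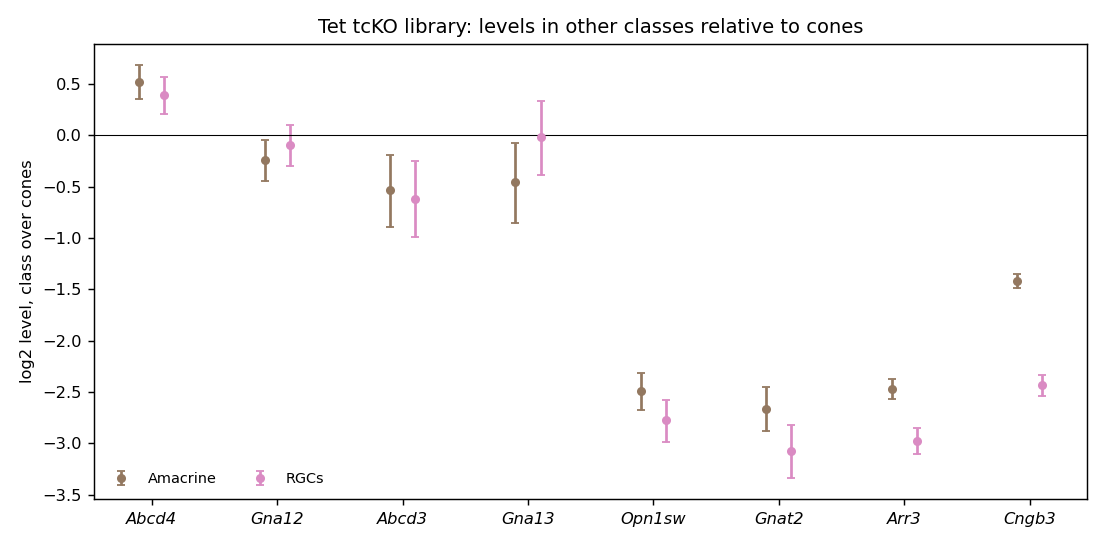
Log2 level in amacrine cells and in RGCs over the level in cones, within the Tet tcKO library, for the 4 genes and the cone genes Opn1sw, Gnat2, Arr3 and Cngb3, with 95% counting intervals. In amacrine cells and RGCs the cone genes lie below -1.4 while Abcd4 lies above 0 and Gna12 near 0. Other classes are not drawn, and in bipolar cells Cngb3 was above its cone level (log2 0.59).

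On the chromosome, 8 other genes at 10 CPM or more lay between 10 and 200 kb from Abcd4. None was 2-fold higher or lower, against 3.18% and 2.48% of all genes, and their median log2 ratio was 0.18. They ranged from -0.52 (Syndig1l, 58.3 kb upstream) to 0.56 (Lin52, 54.9 kb downstream). Aldh6a1, an enzyme of valine breakdown, was at 0.47 and the lysosomal cholesterol carrier Npc2 at 0.16. Gna12 had 3 such neighbours, Brat1 at 0.37, Iqce at 0.21 and Ttyh3 at 0.47. Around Gna13, 5 genes ranged from -0.56 (Slc16a6) to -0.06 (Arsg), and around Abcd3 the 1 gene, Arhgap29, was at -0.34. None of these neighbours reached 2-fold, a count near the background on so few genes.

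**Figure D5:**
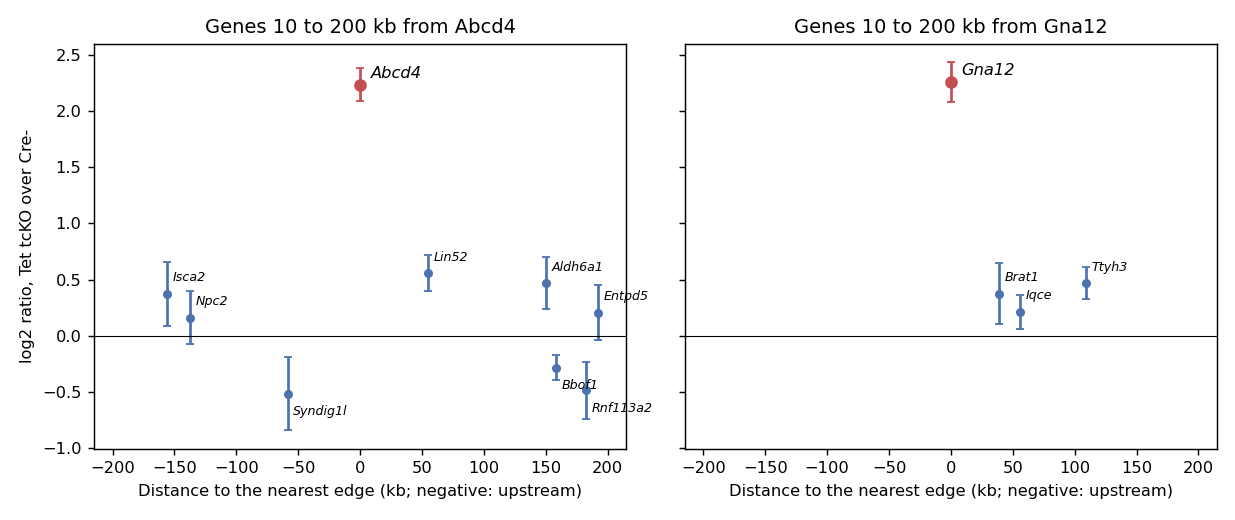
Log2 ratio of Tet tcKO over Cre- over all nuclei, with 95% counting intervals, for Abcd4 and Gna12 and for genes at 10 CPM or more between 10 and 200 kb away, by distance in kb from the member's nearest edge. The members sit at 2.24 and 2.26, and the neighbours between -0.52 and 0.56.

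Overlapping genes could add reads to a count, and for strand use in the counting no statement was found in the sources used here. The annotation shows no gene over Abcd4. Gna12 overlaps the opposite-strand gene Amz1 over 3039 bases. Amz1 held 21 UMIs in Cre- and 68 in Tet tcKO, few beside the 305 and 2103 of Gna12, with a log2 ratio of 1.17 (0.44 to 1.95). Gna13 overlaps the opposite-strand lncRNA Gm11696 over 985 bases, which gave 179 and 198 UMIs.

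Abcd4 belongs to the cobalamin route. Of 11 other genes listed for it, 7 reached 10 CPM and 0 were 2-fold higher or lower, where the background was 3.18% and 2.48%, and the median log2 ratio was 0.05. Lmbrd1, the partner of ABCD4 at the lysosome, was at 69.3 and 71.8 CPM, with a ratio of 0.05 (-0.08 to 0.18). Mtr, methionine synthase, was at -0.02 and Mmut, methylmalonyl-CoA mutase, at 0.54 (0.21 to 0.88). Mmadhc, which directs cobalamin to both enzymes, was at 0.41, and the transport protein Tcn2 at -0.34. Mmachc, which receives cobalamin in the cytosol, was under 10 CPM, with 34 and 46 UMIs.

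Within the ABCD family, 3 of the 4 genes reached 10 CPM and 1, Abcd4, which was picked on this contrast, was 2-fold higher. The peroxisomal transporter Abcd2 was at 29.0 and 30.4 CPM, with a ratio of 0.07 (-0.13 to 0.27). Of 16 genes of peroxisomal fatty acid oxidation, the route that ABCD3 feeds, 12 were measured and 0 were 2-fold higher or lower, with a median of 0.21, or 0.07 without Abcd3. Crot, a carnitine acyltransferase, stood highest at 0.83 and Acaa1a, a thiolase, lowest at -0.88. Of 15 peroxisome biogenesis genes 13 were measured, 0 were called and the median was 0.21. The median of all genes was 0.15, and 3.18% of all genes were 2-fold higher and 2.48% lower.

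Among 16 G protein alpha subunits, 14 were measured. Higher by at least 2-fold were Gna12, Gnat2 at 2.09 and Gna14 at 1.20, and lower was Gnat1 at -1.54, beside 3.18% and 2.48% of all genes. Gna12 was picked on this contrast. Gnat2 and Gnat1 are the transducins of cones and rods. Gnai3 was at 0.87, Gnaq at 0.42, Gna11 at -0.07 and Gnaz at -0.67, and the list had a median of 0.34, or 0.16 without Gna12 and Gna13. The Gna12 ratio was the highest of the list, though its interval (2.08 to 2.44) overlapped that of Gnat2 (1.99 to 2.20).

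Few receptors of this G protein class were measured, 2 of 13 listed. S1pr3, a sphingosine 1-phosphate receptor, was at 2.00 from 40 and 230 UMIs (1.51 to 2.52), and Lpar1, a lysophosphatidic acid receptor, at -0.53. Downstream, 15 of 17 exchange factors and RhoA effectors were measured, with 0 called and a median of -0.01. The exchange factors Arhgef1, Arhgef11, Arhgef12 and Akap13 were at -0.13, 0.50, 0.13 and 0.54. Rhoa was at 0.28, Rock1 at -0.60 (-0.66 to -0.54) and Rock2 at -0.12. With 3.18% of all genes 2-fold higher and 2.48% lower, a count of 0 among 15 is near the background.

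The genes whose pattern was most like each member were found from 13 sums, 1 for each library and class of at least 20 nuclei, by Pearson's r of log2 (CPM + 1) over 4849 genes at 50 CPM or more. The sums share their libraries, so r follows the difference between the libraries in large part. Most like Abcd4 were Ldlrad3 (r = 0.92), Rgl3 (0.89), Dpp8 (0.88), Gmeb1 (0.87) and Poteg (0.87). Most like Gna12 were Ambra1 (0.94), Gm45397 (0.92), Fabp7 (0.91), Ahcyl2 (0.89) and Zbtb8os (0.88). Abcd4 and Gna12 had r = 0.83 with each other, so neither was among the 5 most like the other. Of the 10, Rgl3, Poteg and Fabp7 had log2 ratios above 2 over all nuclei (2.54, 5.14 and 6.99), while Dpp8, Gmeb1, Ambra1 and Gm45397 were between 0.38 and 0.62.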

How the data were processed

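Single-nucleus libraries of Cre- and Tet tcKO retina at P21 were used, 1 per genotype. Per the labels, reads were processed with pipseeker (v3.3.0) and aligned to GRCm39. The authors removed ambient RNA with CellBender (v0.3.0, cell probability 0.99), used Monocle3, and filtered nuclei on transcripts (more than 500, fewer than 10000) and on mitochondrial share (below 20%). The values deposited as matrices are whole-number UMI counts. The deposited cell tables give a mitochondrial percent and a size factor, a ratio of depths, and the deposited gene table a signal per genotype; these entered no level. Class and cluster names are the authors' annotation. Doublets were not called. Other per-sample columns were 0.

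UMIs were summed per library and population and divided by the total (CPM). Ratios have conditional exact 95% intervals, levels Poisson and shares Clopper-Pearson intervals, and 0 counts a floor of 3. Counting treats UMIs as independent. With 1 library per genotype there is no test between genotypes. A population was compared only if, in each of its clusters, own-class markers were at least as many as those of any other class in the 10 leading genes. Genes at 10 CPM in at least 1 library were called at 2-fold. Scripts (Python 3.11.15, numpy 2.4.6, scipy 1.17.1, pandas 2.3.3) were tested on simulated data. Loci and promoters came from GRCm39 with GENCODE M39.

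Named genes were the members, 14 set genes of their pathways (such as Lmbrd1 and Rhoa), the 3 highest and 3 lowest of each pathway list, genes within 200 kb (shown from 10 kb), the 5 most alike in pattern to Abcd4 and to Gna12, the Tet genes, and cone and rod markers. Some genes that this rule names are not reported here. Members and lists were chosen with earlier results of these data known. Alternatives covered scaling, UMI weighting, thinning to 500 UMIs, depth, clusters and the CPM minimum.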

Additional observations from a re-analysis of the deposited data

Results flagged for a closer look

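Abcd3 had ratios on opposite sides of 0 in different populations, which is why it is listed here. Its log2 ratio of Tet tcKO over Cre- was 0.67 in pooled photoreceptors and 2.39 in horizontal cells (from 3 and 11 UMIs), but -0.64 in amacrine cells. The difference between the populations was not tested, since each genotype had 1 library, and the upper bound in amacrine cells (-0.01) lay close to 0.

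The deposited gene table counts the nuclei with each gene, a column that entered no comparison, and for all 4 genes it gave more nuclei than the matrices hold. The excess was 333 nuclei for Abcd4 (2866 against 2533), 315 for Gna12 (2244 against 1929), 158 for Abcd3 (1210 against 1052) and 134 for Gna13 (1000 against 866). The share was like for the members, from 13.1% more for Abcd4 to 16.3% more for Gna12, and the table does not say in which genotype the further nuclei were.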

How the results depend on the processing

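Of 202 values recomputed under an alternative, 158 stayed within their counting interval or, for counts and medians, a set tolerance, 44 moved beyond it, and 0 ratios whose interval left out 0 changed sign (the cobalamin median, 0.05, did). Abcd4 stayed at a log2 ratio of 1 or more in 41 of 41 alternatives over all populations (1.38 to 3.28), and Gna12 in 41 of 41 (1.41 to 3.28), while Abcd3 ran from -0.87 to 2.69 and Gna13 from -0.56 to 1.00. Over all nuclei, counting each gene once per nucleus gave 1.98 for Abcd4 and 2.03 for Gna12, thinning to 500 UMIs gave 1.99 for Gna12, and leaving out the 5% of nuclei with most UMIs gave 2.08 for Gna12. Leaving out clusters led by markers of another class, an alternative chosen after seeing the data, gave 2.04 for Abcd4. In pooled photoreceptors, median-of-ratios scaling, which shifts all genes by 0.23, gave 1.82 for Abcd4, 0.43 for Abcd3 and 1.94 for Gna12, and Gna12 was 1.88 counted once per nucleus and 1.86 thinned. Thinning gave 1.38 for Abcd4 and 0.95 for Abcd3 in RGCs, and 3.28 for Gna12 in horizontal cells. The cause of these moves was not tested.

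With a minimum of 1 CPM, 1049 genes were 2-fold higher and 819 lower over all nuclei, and with 50 CPM 125 and 137, with 5 higher in every population. Scaling by TMM and by median of ratios shifts all genes by 0.10 and 0.15 over all nuclei, and gave list medians of 0.30 and 0.25 for the ABCD family, -0.054 and -0.096 for cobalamin handling, 0.10 and 0.062 for peroxisomal fatty acid oxidation, 0.11 and 0.066 for peroxisome biogenesis, 0.24 and 0.20 for G alpha subunits, 0.63 and 0.59 for receptors, and -0.11 and -0.16 for exchange factors and RhoA effectors. At 1 CPM the medians were 0.27 for the ABCD family and 0.35 for both peroxisomal fatty acid oxidation and receptors, and once per nucleus 0.21 for G alpha subunits. Without thinning, the percent of nuclei with a UMI in Cre- and Tet tcKO was 5.36 and 31.6 for Abcd4, 4.95 and 10.2 for Abcd3, 3.96 and 24.2 for Gna12, and 4.2 and 8.23 for Gna13.

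The limit on every value is 1 library per genotype, so intervals hold no spread between animals. No paired analysis was possible because each genotype has 1 library and the labels give no replicate numbers. Leaving out the largest cluster could not be run for horizontal cells, which form 1 cluster. Horizontal cells and Müller glia rest on 0 to 61 UMIs of a member.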
